A study of Mus musculus with 20 samples.

Results

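Neutrophil secondary granule genes, Ngp, Camp, Ltf, Lcn2, Mmp8 and Cd177, were followed in peripheral blood RNA of the Lyn-deficient mouse model of SLE. They were picked by symbol, with earlier results of these data known, and all 6 were present among the 9228 genes of the expression table. RNA-seq covered 20 female C57BL/6 mice aged 22 to 23 weeks, with 4 mice for each of 5 genotypes. By their labels, Lyn-/-Ifnar1-/- mice lacked the kinase Lyn and the IFNAR1 chain of the receptor for type I IFN. Lyn-/-Irf5+/- and Lyn-/-Irf5-/- mice lacked Lyn together with 1 or both copies of the transcription factor gene Irf5. Lyn-/- mice carried the Lyn deletion alone, which the 3 compound genotypes shared, and WT mice carried none of these alleles. All deletions were germline, so every blood cell type was affected. WT mice were purchased whereas the mutants were bred by crossing, so origin and genotype cannot be told apart against WT. The comparison of each compound genotype with Lyn-/- mice asks whether loss of the type I IFN receptor or of IRF5 alters the granule genes that changed with loss of Lyn. All comparisons with WT share the same 4 WT mice, and all comparisons with Lyn-/- share the same 4 Lyn-/- mice.

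A neutrophil builds its granules in sequence while it matures in the bone marrow. Primary granule proteins are made at the promyelocyte stage, secondary granule proteins at the myelocyte and metamyelocyte stages, and gelatinase granule proteins after that. Transcription of secondary granule genes depends on the factor C/EBP-epsilon and has largely ceased in the segmented cells that normally enter the blood, although Lcn2 can also be induced by inflammatory signals. Neutrophil precursor transcripts in whole blood are known from expression studies of human SLE.

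The 4 promoters shown here belong to Ngp and Ltf, which were called lower than in Lyn-/- mice in the 3 compound genotypes, and to Lcn2 and Mmp8, which were not called in these comparisons. Camp, called lower in the same 3 genotypes, is not shown, and its window held no match to any of the motifs given below. Whether the 2 pairs differed was not tested. Each spans 250 bases before the annotated start and 50 bases after it, 5′ to 3′ on the strand of the gene (RefSeq, GRCm38.p6). Capitals mark TTNNGNAA, a C/EBP-like motif, GAGGAA, a PU.1-like motif, and TATAAA, the TATA box, each on either strand.
Ngp (chr9:110419558-110419857, plus strand): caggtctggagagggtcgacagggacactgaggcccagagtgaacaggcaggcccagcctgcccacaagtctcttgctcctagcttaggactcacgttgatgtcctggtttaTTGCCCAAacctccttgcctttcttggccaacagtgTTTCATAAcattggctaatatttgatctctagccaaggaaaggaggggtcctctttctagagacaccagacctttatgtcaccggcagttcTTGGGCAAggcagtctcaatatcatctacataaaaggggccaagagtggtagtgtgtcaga
Ltf (chr9:111019042-111019341, plus strand): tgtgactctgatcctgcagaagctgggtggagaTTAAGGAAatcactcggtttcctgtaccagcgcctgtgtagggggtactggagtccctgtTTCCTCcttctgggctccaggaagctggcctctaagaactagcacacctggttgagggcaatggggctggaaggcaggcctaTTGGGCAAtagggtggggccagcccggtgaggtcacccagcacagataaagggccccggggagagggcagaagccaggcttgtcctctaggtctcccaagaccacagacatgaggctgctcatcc
Lcn2 (chr2:32387690-32387989, minus strand): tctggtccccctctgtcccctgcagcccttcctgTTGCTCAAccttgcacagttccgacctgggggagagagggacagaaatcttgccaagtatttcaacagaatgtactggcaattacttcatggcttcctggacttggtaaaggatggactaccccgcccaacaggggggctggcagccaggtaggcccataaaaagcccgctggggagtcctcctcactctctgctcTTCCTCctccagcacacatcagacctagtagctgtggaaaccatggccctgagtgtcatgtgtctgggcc
Mmp8 (chr9:7558179-7558478, plus strand): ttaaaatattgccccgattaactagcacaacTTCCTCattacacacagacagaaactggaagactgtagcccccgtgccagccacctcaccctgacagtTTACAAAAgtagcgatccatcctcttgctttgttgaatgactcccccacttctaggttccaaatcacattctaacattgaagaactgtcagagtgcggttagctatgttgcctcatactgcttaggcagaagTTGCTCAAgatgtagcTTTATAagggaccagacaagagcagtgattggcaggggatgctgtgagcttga
The C/EBP-like motif was found in the windows of 5 of 6 genes, with 3 matches in Ngp, 2 each in Ltf and Mmp8, 1 each in Lcn2 and Cd177, and 0 in Camp. It occurs in 40.7% of 32851 windows of the same length. The C/EBP-like match nearest to a start was TTGGGCAA, whose first base lay 11 bases before that of Ngp, and the same letters began 75 bases before that of Ltf. The PU.1-like motif was found in 4 of 6 windows (Ltf, Lcn2, Mmp8 and Cd177), against 28.3% of all windows, and the TATA box in those of Mmp8 and Cd177, against 13.6%. No match overlapped another, and the matches describe letters, not binding.

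Camp, Ngp and Ltf lie within 1195 kb of each other on chromosome 9 of GRCm38.p6, at 109847377 to 109849456, 110419808 to 110423012 and 111019292 to 111042766. Mmp8 lies on the same chromosome at 7558429 to 7568486, Lcn2 on chromosome 2 at 32384637 to 32387739 and Cd177 on chromosome 7 at 24743983 to 24760334. The interval from Camp to Ltf holds 31 protein-coding genes, these 3 included, and 11 of the others were tested in Lyn-/- against WT mice. Of these 11, 1 was higher and 4 were lower, with a median log2 fold change of -0.27. The rise described below for the 3 granule genes was thus not shared across the tested genes of the interval.

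The values were RPKM, reads scaled for gene length and library size, which set genes of different lengths on one scale. The 20 libraries held 935018 to 2163844 recovered reads, with a median of 11 to 52 reads per gene in a mouse. Lyn-/-Ifnar1-/- mouse 3 had the lowest median, and mice 3 and 4 of that genotype had its largest sums of RPKM, so results on Lyn-/-Ifnar1-/- mice are also given without these mice. The 3 hemoglobin genes took 55.5% to 78.9% of the RPKM of a mouse. Markers of red cells, platelets, neutrophils, monocytes and B, T and NK cells were all detected, as befits blood. Lyn itself ranged from 2.42 to 13.8 RPKM across the 4 genotypes with the Lyn deletion (8.40 to 11.9 RPKM in Lyn-/- mice) and from 32.4 to 36.9 RPKM in WT mice. Irf5 and Ifnar1 lay above every WT mouse in the mice labelled as lacking 1 or both copies of them. Irf5 ranged from 35.1 to 40.8 RPKM in Lyn-/-Irf5-/- and 25.4 to 33.5 RPKM in Lyn-/-Irf5+/- mice, against 27.8 to 40.4 RPKM in Lyn-/- and 20.1 to 21.7 RPKM in WT mice. Ifnar1 ranged from 6.23 to 10.6 RPKM in Lyn-/-Ifnar1-/- mice, against 5.08 to 6.17 RPKM in Lyn-/- and 5.11 to 6.11 RPKM in WT mice. The table gives 1 value per gene, so reads from a deleted part cannot be seen apart from the rest, and the Irf5 and Ifnar1 alleles rest on the labels alone.

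In the blood of Lyn-/- mice all 6 genes rose above WT, and the lowest Lyn-/- mouse lay above the highest WT mouse for each of them. All 6 of 6 were called by limma, where 17.1% of 8696 tested genes were called higher, and 6 of 6 did not overlap, where 18.2% of tested genes were higher in every Lyn-/- mouse. Their median log2 fold change was 2.88, and the median over all tested genes was -0.03. Since the 6 genes were chosen with earlier results of these data known, the counts beside these shares, here and below, are a description. Fold changes are on the scale of log2(RPKM + 0.5), which understates those of low genes, and adjusted p values are from limma with Benjamini-Hochberg adjustment over all tested genes. In whole blood, more cells of a type and more RNA per cell cannot be told apart.

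**Figure D1:**
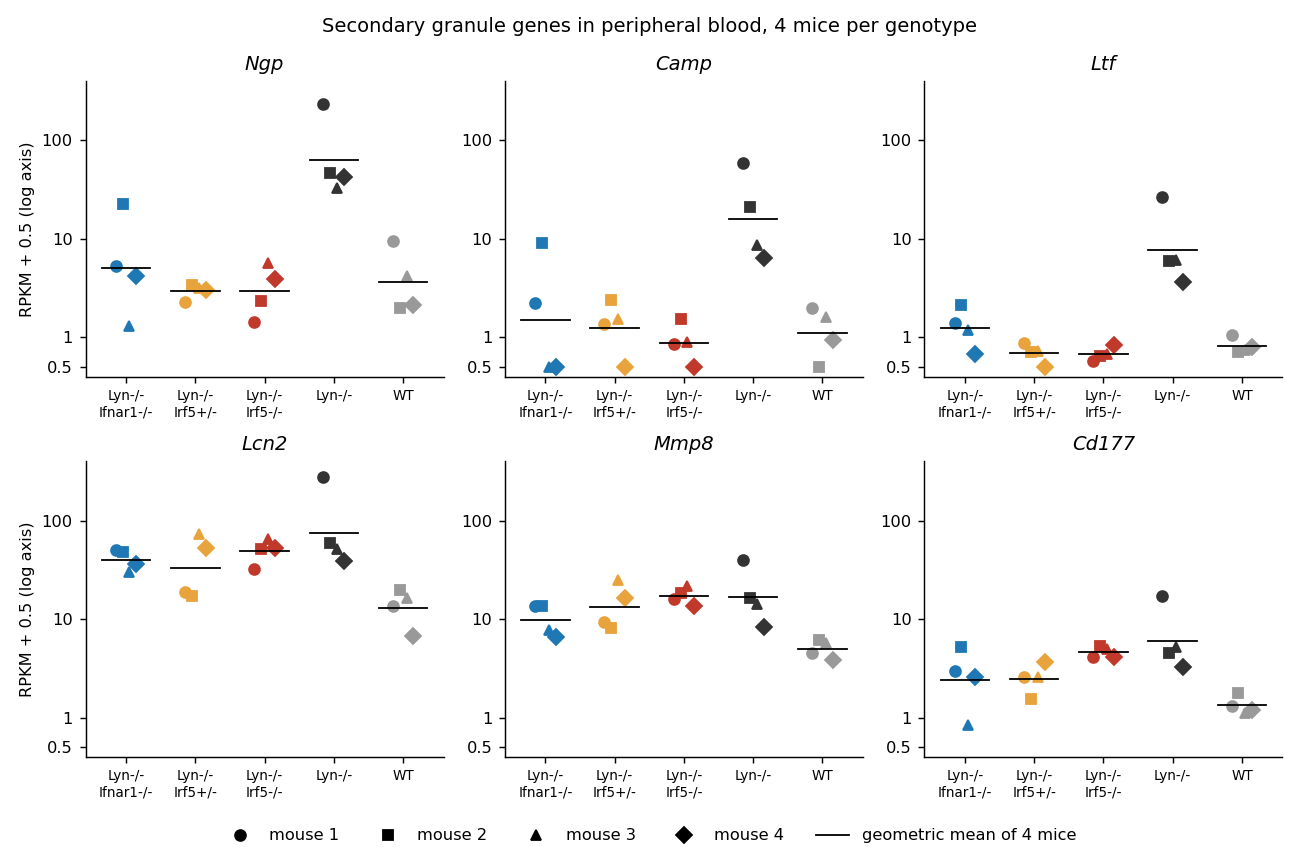
RPKM + 0.5 on a log axis for the 6 genes in each mouse, by genotype, with symbols for the mouse number and bars for the geometric mean of 4 mice. Every Lyn-/- mouse lies above every WT mouse for each gene, and Ngp is at 234 RPKM in Lyn-/- mouse 1 and at or below 5.15 RPKM in all Lyn-/-Irf5-/- mice.

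Ngp and Camp encode antimicrobial granule proteins with a cathelin-like domain, and Camp gives rise to the mouse cathelicidin peptide CRAMP. Ngp stood at 234, 46.6, 32.7 and 42.2 RPKM in the Lyn-/- mice, against 8.98, 1.51, 3.72 and 1.61 RPKM in WT mice. These ranges were far apart, with a log2 fold change of 4.12 (SE 0.70 and adjusted p = 1.47e-04), the largest of the 6. Camp stood at 58.0, 20.6, 8.07 and 5.84 RPKM in Lyn-/- mice, against 1.48, 0, 1.11 and 0.447 RPKM in WT mice. Its values rest on 176 reads in all in Lyn-/- mice, against 7 reads in WT mice, and the log2 fold change was 3.86 (SE 0.79 and adjusted p = 9.56e-04).

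Ltf and Lcn2 encode lactoferrin, which binds iron, and lipocalin 2, which captures bacterial siderophores. Ltf stood at 26.2, 5.46, 5.54 and 3.19 RPKM in Lyn-/- mice, against 0.566, 0.212, 0.242 and 0.293 RPKM in WT mice. It was the lowest of the 6 genes in WT blood and had the smallest p value, with a log2 fold change of 3.24 (SE 0.42 and adjusted p = 7.60e-06). Lcn2 stood at 276, 59.3, 50.6 and 38.4 RPKM in Lyn-/- mice, against 13, 19.1, 16.0 and 6.28 RPKM in WT mice, a log2 fold change of 2.53 (SE 0.52 and adjusted p = 9.54e-04). It was the highest of the 6 in both genotypes.

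Mmp8 encodes neutrophil collagenase, and Cd177 a GPI-anchored surface protein of neutrophils. Mmp8 stood at 39.2, 16.0, 13.8 and 7.84 RPKM in Lyn-/- mice, against 3.98, 5.58, 5.29 and 3.38 RPKM in WT mice. This was the smallest rise of the 6, a log2 fold change of 1.75 (SE 0.39 and adjusted p = 0.00195), and the 1 call lost when libraries were set to the same sum of RPKM (adjusted p = 0.0623, and 0.0652 with hemoglobin left out of the sum). Cd177 stood at 16.5, 4.05, 4.70 and 2.74 RPKM in Lyn-/- mice, against 0.817, 1.29, 0.612 and 0.690 RPKM in WT mice, a log2 fold change of 2.18 (SE 0.46 and adjusted p = 0.00121). For each of the 6 genes the exact two-sided permutation test over the 8 mice gave p = 0.0286, the smallest that 4 mice against 4 allow.

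The spread among Lyn-/- mice was wide, and mouse 1 was the highest for all 6 genes. It stood 2.84 times (Mmp8) to 7.19 times (Camp) above the median of the other 3 mice. Without it, Ngp averaged 40.5 ± 7.11 RPKM (SD, n = 3) in place of 89.0 ± 97.2 RPKM (SD, n = 4), and Lcn2 averaged 49.4 ± 10.5 RPKM (SD, n = 3) in place of 106 ± 113 RPKM (SD, n = 4). The SD of the log2 values among Lyn-/- mice was 0.93 for Mmp8 and 1.04 to 1.44 for the other 5 genes, where the median over all tested genes was 0.30. These SDs were larger than those of 99.2% to 99.9% of the tested genes in this genotype. A wide spread was not confined to it. In Lyn-/-Ifnar1-/- mice the SD was larger still for Ngp (1.70), Camp (2.01) and Cd177 (1.10). It was smaller there for Ltf (0.68), Lcn2 (0.35) and Mmp8 (0.54). In WT mice the SDs of Ngp (1.05) and Camp (0.89) were larger than those of 99.9% of tested genes. That of Lcn2 (0.67) exceeded 98.9%, and those of Ltf, Mmp8 and Cd177 68.1% to 77.8%. The SDs of Camp rest on 7 reads in all in WT and 24 reads in Lyn-/-Ifnar1-/- mice. Spread between mice and the noise of counting few reads cannot be told apart there. The added 0.5 RPKM narrows the SD of Ltf, which stood at 0.212 to 0.566 RPKM in WT mice. Leaving out Lyn-/- mouse 1 gave log2 fold changes over WT of 1.33 (Mmp8) to 3.49 (Ngp), and all 6 remained called.

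Mouse 1 also had the highest values of other neutrophil genes among the 4 Lyn-/- mice. It was the highest for 14 of 15 tested genes of a mature neutrophil list, 9 of 10 other secondary granule genes and 4 of 4 gelatinase granule genes, where it was the highest for 33.6% of all tested genes. It was the highest for 0 of 10 mitotic cell cycle genes, 0 of 5 erythroid genes and 0 of 7 T cell genes. The summed mature neutrophil genes stood at 8050, 3060, 2200 and 1517 RPKM in Lyn-/- mice 1 to 4. The mean log2 value of the 6 granule genes ranked these mice alike (6.00, 4.11, 3.77 and 3.33).

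In Lyn-/-Ifnar1-/- mice, Ngp, Camp and Ltf fell below Lyn-/- mice. These 3 of 6 were called lower, where 3.96% of tested genes were, and 2 of 6 did not overlap, where 4.83% of tested genes were lower in every mouse. Ngp stood at 4.82, 22.2, 0.801 and 3.65 RPKM in Lyn-/-Ifnar1-/- mice, against at least 32.7 RPKM in Lyn-/- mice, a log2 fold change of -3.64 (SE 0.70 and adjusted p = 0.00339, exact permutation p = 0.0286). Ltf stood at 0.892, 1.61, 0.678 and 0.172 RPKM in Lyn-/-Ifnar1-/- mice, against at least 3.19 RPKM in Lyn-/- mice, a log2 fold change of -2.64 (SE 0.42 and adjusted p = 6.13e-04, exact permutation p = 0.0286). Camp stood at 1.75, 8.61, 0 and 0 RPKM and overlapped with Lyn-/- mice through mouse 2, whose value was above those of Lyn-/- mice 3 and 4. Its log2 fold change was -3.42 (SE 0.79 and adjusted p = 0.0123), while the exact permutation test gave p = 0.0857.

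Mouse 2 was the highest Lyn-/-Ifnar1-/- mouse for Ngp, Camp, Ltf and Cd177. The other 3 had 0.801 to 4.82 RPKM of Ngp, inside the WT range of 1.51 to 8.98 RPKM or below it. The lowest of these values, in mouse 3, was 1 read. None of Ngp, Camp and Ltf was called against WT, with log2 fold changes of 0.49 (95% interval -0.97 to 1.94), 0.44 (-1.21 to 2.09) and 0.59 (-0.29 to 1.48). Without Lyn-/-Ifnar1-/- mice 3 and 4, an alternative chosen after seeing the data, the log2 fold change from Lyn-/- was -2.52 for Ngp (adjusted p = 0.0249) and -2.17 for Ltf (adjusted p = 0.00519), whereas Camp at -1.83 was no longer called (adjusted p = 0.136). Camp also lost the call with array weights, limma-voom and a scaling outside hemoglobin (adjusted p = 0.0579 to 0.0698). In a fit of Lyn-/-Ifnar1-/- and Lyn-/- mice alone 0 of 6 genes were called, with adjusted p = 0.0814 for Ngp, 0.149 for Camp and 0.0638 for Ltf.

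Lcn2, Mmp8 and Cd177 were not called between Lyn-/-Ifnar1-/- and Lyn-/- mice. Lcn2 stood at 49.6, 47.2, 29.4 and 35.9 RPKM in Lyn-/-Ifnar1-/- mice, with a log2 fold change of -0.91 from Lyn-/- mice (95% interval -2.00 to 0.17, adjusted p = 0.306). All 4 values lay above every WT mouse, and Lcn2 was the 1 gene of 6 called higher than WT in this genotype (log2 fold change 1.61, SE 0.52 and adjusted p = 0.0318), where 11.7% of tested genes were called higher. That call was lost without Lyn-/-Ifnar1-/- mouse 1, 2 or 4 or WT mouse 1 or 4, each left out alone (adjusted p = 0.0509 to 0.114), and without Lyn-/-Ifnar1-/- mice 3 and 4 (adjusted p = 0.0616). Mmp8 stood at 13.1, 13.1, 7.20 and 6.14 RPKM in Lyn-/-Ifnar1-/- mice, also above every WT mouse. It made 2 of 6 genes without overlap, where 10.5% of tested genes were higher in every mouse, but its log2 fold change of 0.99 over WT was not called (adjusted p = 0.0734).

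The interval of Mmp8 from Lyn-/- mice ran from -1.57 to 0.05. Cd177 stood at 2.45, 4.71, 0.343 and 2.08 RPKM in Lyn-/-Ifnar1-/- mice and overlapped with both Lyn-/- and WT mice. Its log2 fold change from Lyn-/- was -1.32, with an interval of -2.28 to -0.37 that lay below 0 without passing the adjusted threshold (adjusted p = 0.0865). It was called lower when Lyn-/-Ifnar1-/- mouse 2 (adjusted p = 0.0261) or Lyn-/- mouse 4 (adjusted p = 0.0463) was left out. Without Lyn-/-Ifnar1-/- mice 3 and 4, Mmp8 and Cd177 were called higher than WT (log2 fold changes 1.45 and 1.56, adjusted p = 0.0420 and 0.0285).

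**Figure D2:**
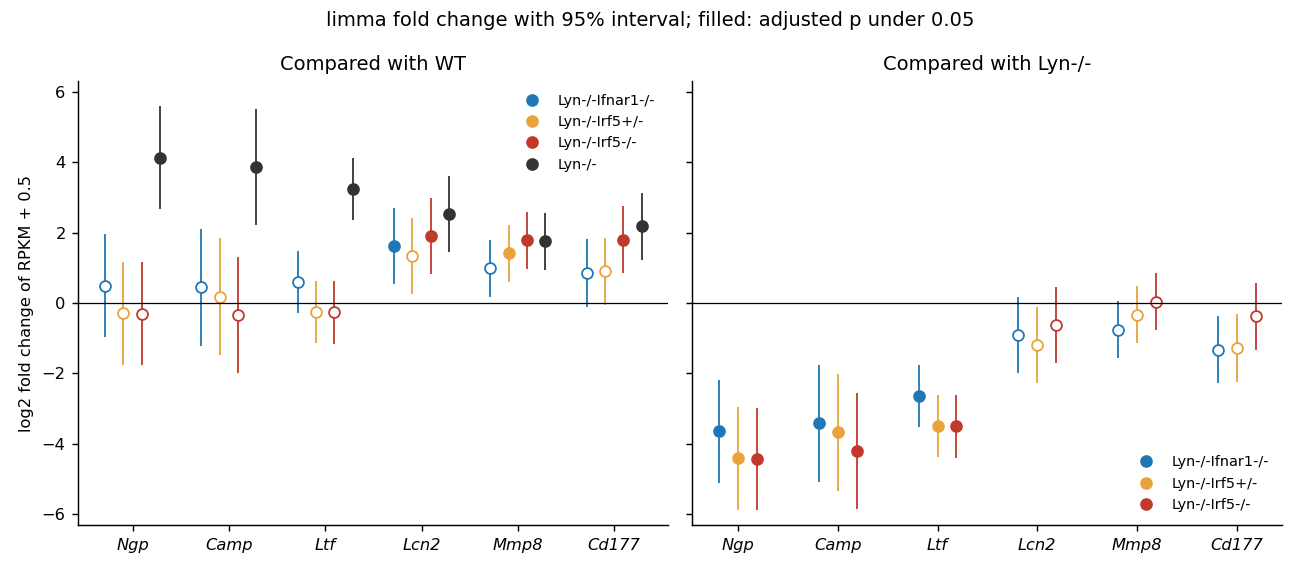
log2 fold changes from limma with 95% intervals for the 6 genes, each mutant genotype over WT (left) and each compound genotype over Lyn-/- (right), with filled points for an adjusted p under 0.05. Ngp, Camp and Ltf lie between -4.43 and -2.64 on the right, all filled, while Lcn2, Mmp8 and Cd177 lie between -1.32 and 0.04 and are open.

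In mice labelled Lyn-/-Irf5+/-, Ngp, Camp and Ltf fell below Lyn-/- mice. These 3 of 6 genes were called lower, where 8.46% of tested genes were, and all 3 did not overlap, where 10.5% of tested genes were lower in every mouse. Ngp stood at 1.78, 2.93, 2.68 and 2.55 RPKM in Lyn-/-Irf5+/- mice, the narrowest range of this gene in any genotype, though on 27 reads in all. Its log2 fold change from Lyn-/- was -4.41 (SE 0.70 and adjusted p = 5.91e-04). Camp stood at 0.863, 1.89, 1.04 and 0 RPKM on 5 reads in all (log2 fold change -3.68, SE 0.79 and adjusted p = 0.00449). Ltf stood at 0.377, 0.206, 0.227 and 0 RPKM on 6 reads, against 359 reads in Lyn-/- mice (log2 fold change -3.49, SE 0.42 and adjusted p = 9.50e-05). None of the 3 was called against WT, with log2 fold changes of -0.29 for Ngp (95% interval -1.75 to 1.17), 0.18 for Camp (-1.47 to 1.83) and -0.25 for Ltf (-1.13 to 0.64).

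Lcn2 divided the Lyn-/-Irf5+/- mice, with 18.2 and 16.6 RPKM in mice 1 and 2, inside the WT range, and 73.1 and 51.6 RPKM in mice 3 and 4, inside the Lyn-/- range. Its log2 fold change was 1.34 over WT (adjusted p = 0.107) and -1.19 from Lyn-/- (95% interval -2.27 to -0.11, adjusted p = 0.130), and neither was called. The summed mature neutrophil genes were lower in the same mice, with 1356 and 1801 RPKM in mice 1 and 2 and 4660 and 3211 RPKM in mice 3 and 4. Mmp8 had the same division, with 8.75 and 7.61 RPKM in mice 1 and 2 and 24.6 and 15.8 RPKM in mice 3 and 4. All 4 lay above WT, and Mmp8 was the 1 gene of 6 called higher than WT in this genotype (log2 fold change 1.41, SE 0.39 and adjusted p = 0.0229), where 4.98% of tested genes were called and 9.1% were higher in every mouse. Without Lyn-/-Irf5+/- mouse 3 or 4, or WT mouse 1 or 4, it was not called (adjusted p = 0.0621 to 0.106).

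Cd177 stood at 2.10, 1.04, 2.07 and 3.14 RPKM in Lyn-/-Irf5+/- mice, overlapping with Lyn-/- mice through mouse 4 alone and with WT through mouse 2 alone. It was not called against either, with a log2 fold change of -1.28 from Lyn-/- mice (95% interval -2.24 to -0.33, adjusted p = 0.0657) and 0.90 over WT (adjusted p = 0.236). It was called lower than in Lyn-/- mice when Lyn-/-Ifnar1-/- mouse 2 or 3, both mice 3 and 4 of that genotype, or Lyn-/- mouse 4 was left out of the fit (adjusted p = 0.0159 to 0.0437). Lcn2 was called higher than WT when Lyn-/- mouse 1 was left out (adjusted p = 0.0356).

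In mice labelled Lyn-/-Irf5-/-, Ngp, Camp and Ltf fell below Lyn-/- mice, 3 of 6 called where 8.58% of tested genes were called lower, and 3 without overlap where 12.6% were lower in every mouse. Lcn2, Mmp8 and Cd177 were higher than WT, 3 of 6 called where 7% of tested genes were called higher, and 3 without overlap where 14.2% were higher in every mouse. Ngp stood at 0.918, 1.81, 5.15 and 3.46 RPKM in Lyn-/-Irf5-/- mice, all inside the WT range or below it. Its log2 fold change was -4.43 from Lyn-/- (SE 0.70 and adjusted p = 6.24e-04) and -0.30 over WT (95% interval -1.76 to 1.16). Camp stood at 0.356, 1.05, 0.399 and 0 RPKM on 5 reads in all, with a log2 fold change of -4.19 from Lyn-/- (SE 0.79 and adjusted p = 0.00161) and -0.33 over WT (95% interval -1.98 to 1.32). Ltf, the iron-binding protein, stood at 0.0777, 0.154, 0.174 and 0.338 RPKM on 8 reads, with a log2 fold change of -3.50 from Lyn-/- (SE 0.42 and adjusted p = 1.44e-04) and -0.27 over WT (95% interval -1.15 to 0.62).

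Lcn2 stood at 31.5, 50.8, 65.1 and 52.1 RPKM in Lyn-/-Irf5-/- mice, around the lower 3 Lyn-/- mice and above every WT mouse. It was higher than WT by a log2 fold change of 1.90 (SE 0.52 and adjusted p = 0.0195), a call lost without Lyn-/-Irf5-/- mouse 3 or 4 or WT mouse 4 (adjusted p = 0.0535 to 0.0869). Mmp8 stood at 15.5, 18.1, 21.0 and 13 RPKM in Lyn-/-Irf5-/- mice, higher than WT by a log2 fold change of 1.78 (SE 0.39 and adjusted p = 0.00375). Cd177 stood at 3.61, 4.81, 4.49 and 3.64 RPKM in Lyn-/-Irf5-/- mice, a narrow range inside that of Lyn-/- mice. It was higher than WT by a log2 fold change of 1.79 (SE 0.46 and adjusted p = 0.0126).

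None of these 3 was called from Lyn-/- mice, with log2 fold changes of -0.63 for Lcn2 (95% interval -1.71 to 0.45), 0.04 for Mmp8 (-0.78 to 0.85) and -0.38 for Cd177 (-1.34 to 0.57). Each of these uncalled values changed sign under at least 1 other scaling. The intervals leave room for a fall of Lcn2 by up to 1.71 on the log2 scale. Whether the fall of one gene exceeded that of another was not tested, since the genes were sorted by these same values.

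The order of the 6 genes by mean RPKM differed between genotypes. In Lyn-/-Irf5-/- mice Lcn2 (49.9) was followed by Mmp8 (16.9), Cd177 (4.14), Ngp (2.83), Camp (0.452) and Ltf (0.186). In Lyn-/- mice Lcn2 (106) was followed by Ngp (89.0), Camp (23.1), Mmp8 (19.2), Ltf (10.1) and Cd177 (7.01). In WT mice the order was Lcn2 (13.6), Mmp8 (4.56), Ngp (3.96), Cd177 (0.852), Camp (0.760) and Ltf (0.329). Among Lyn-/- mice the ranges of neighbours in this order overlapped for every pair.

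The ratio of Ngp to Lcn2 within a mouse does not depend on the scaling of libraries. It was 0.0272 to 0.470 in Lyn-/-Ifnar1-/- mice, 0.0367 to 0.176 in Lyn-/-Irf5+/- mice and 0.0292 to 0.0792 in Lyn-/-Irf5-/- mice. It was 0.647 to 1.10 in Lyn-/- mice and 0.0787 to 0.691 in WT mice. The 4 Lyn-/- mice thus had close ratios despite their spread in level, mouse 1 included at 0.851. WT mouse 1, which had the most Ngp of the WT mice, had a ratio among those of Lyn-/- mice, and the other 3 WT mice had 0.0787 to 0.257. This pair of genes was chosen after their values were seen, so the ratios carry no test.

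**Figure D3:**
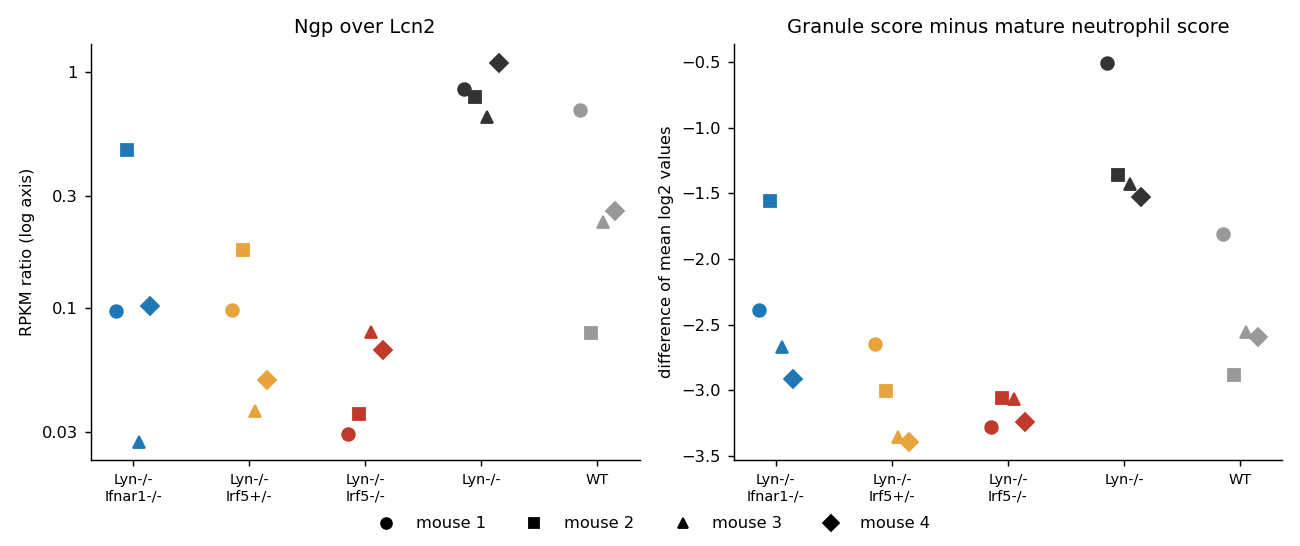
Left, the RPKM ratio of Ngp to Lcn2 (log axis), and right, the mean log2(RPKM + 0.5) of the 6 granule genes minus that of 15 mature neutrophil genes, for each mouse by genotype, with symbols for the mouse number. The ratio lies between 0.647 and 1.10 in Lyn-/- mice and at or below 0.0792 in all 4 Lyn-/-Irf5-/- mice.

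Across the 20 mice, Ngp, Camp and Ltf varied together, and so did Lcn2, Mmp8 and Cd177. The Pearson r of log2(RPKM + 0.5) was 0.91 to 0.92 for the 3 pairs of the first set, 0.84 to 0.91 for the 3 pairs of the second, and 0.40 to 0.64 for the 9 pairs between the sets. The sets are the genes called and not called lower than in Lyn-/- mice in these same data. Higher r within than between sets over the 20 mice therefore follows in part from this sorting. For deviations from the genotype means, r was 0.66 to 0.74, 0.70 to 0.91 and 0.32 to 0.70 for the same pairs, so that values within and between sets overlapped. These are descriptions over 20 libraries, whose points share library depth and the differences between genotypes.

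Lyn-/-Ifnar1-/- and Lyn-/-Irf5-/- mice were not told apart by any of the 6 genes. In limma 0 of 6 were called, and 0 of 6 had an unadjusted p under 0.05, where 4.01% of tested genes were called in either direction. Limma-voom on recovered reads also called 0 of 6. Ngp, Camp and Ltf had log2 fold changes of 0.79 (95% interval -0.67 to 2.25), 0.77 (-0.88 to 2.43) and 0.86 (-0.02 to 1.75) in Lyn-/-Ifnar1-/- over Lyn-/-Irf5-/- mice. Lcn2, Mmp8 and Cd177 had -0.28 (-1.36 to 0.80), -0.79 (-1.61 to 0.02) and -0.94 (-1.90 to 0.02). With array weights Ltf was called higher in Lyn-/-Ifnar1-/- mice (log2 fold change 1.21, adjusted p = 0.0394).

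Other granule genes were described beside the 6. Of 14 further secondary granule genes 10 were in the table, and 9 of them were higher in Lyn-/- than in WT mice, with a median log2 fold change of 1.38. They include Hp, the hemoglobin-binding haptoglobin (154 ± 77.2 RPKM in Lyn-/- mice, against 26.8 ± 4.73 RPKM in WT, n = 4 each, SD), and Cybb, the catalytic subunit of the NADPH oxidase (42.5 ± 2.99 RPKM in Lyn-/- mice, against 12.3 ± 1.74 RPKM in WT, n = 4 each, SD). Compared with Lyn-/- mice, 3 of the 10 were lower in Lyn-/-Ifnar1-/-, 4 in Lyn-/-Irf5+/- and 2 in Lyn-/-Irf5-/- mice. Cybb was lower in the 3 compound genotypes, by a log2 fold change of -0.94 in Lyn-/-Ifnar1-/- (adjusted p = 0.00466), -1.10 in Lyn-/-Irf5+/- (adjusted p = 8.64e-04) and -0.95 in Lyn-/-Irf5-/- mice (adjusted p = 0.00221). Hp was lower in Lyn-/-Ifnar1-/- mice at -1.47 (adjusted p = 0.00725) and in Lyn-/-Irf5+/- mice at -0.99 (adjusted p = 0.0397), and was not called in Lyn-/-Irf5-/- mice at -0.43 (adjusted p = 0.410). Lyz2, lysozyme of myeloid cells, was not called in any compound genotype against Lyn-/- mice, with log2 fold changes of -0.30 to 0.10.

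Of 6 gelatinase granule genes 4 were in the table, and 3 rose in Lyn-/- mice. Compared with Lyn-/- mice, 1 of the 4 was called lower in Lyn-/-Ifnar1-/-, 2 in Lyn-/-Irf5+/- and 1 in Lyn-/-Irf5-/- mice. The gene described next was in none of these counts. Mmp9, gelatinase B, stood at 33.4 ± 7.47 RPKM in Lyn-/-Irf5-/-, 31.9 ± 21.6 RPKM in Lyn-/- mice, against 10.5 ± 4.31 RPKM in WT (n = 4 each, SD), and was called higher than WT in both mutants (adjusted p = 0.00881 in Lyn-/-Irf5-/- and 0.0109 in Lyn-/-). Of 7 primary granule genes 1 was in the table, Cd63, a membrane protein also made by other cells, which was not called in Lyn-/- against WT mice (log2 fold change 0.32, adjusted p = 0.282). The promyelocyte stage thus had no specific marker here, and Mpo and Elane were not analysed here. Of 7 transcription factors of granulocytes 5 were in the table, Cebpe not among them, and 4 of the 5 were higher in Lyn-/- than in WT mice.

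Cebpb, a C/EBP factor of emergency granulopoiesis, rose by a log2 fold change of 2.59 in Lyn-/- over WT mice (SE 0.20 and adjusted p = 1.01e-08). It stood at 41.3 ± 13 RPKM in Lyn-/-Ifnar1-/-, 47.2 ± 6.08 RPKM in Lyn-/-Irf5+/- and 45.9 ± 7.88 RPKM in Lyn-/-Irf5-/- mice, against 98.4 ± 6.63 RPKM in Lyn-/- (n = 4 each, SD). It was called lower than in Lyn-/- mice in each of the 3. Cebpa, which acts at an earlier stage, was called higher in Lyn-/- than in WT mice (log2 fold change 0.81, adjusted p = 0.00173). Against Lyn-/- mice it was called lower in Lyn-/-Ifnar1-/- mice (-0.66, adjusted p = 0.0297). It was not called against Lyn-/- in Lyn-/-Irf5+/- (-0.24, adjusted p = 0.385) or Lyn-/-Irf5-/- mice (0.11, adjusted p = 0.753).

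Genes of mature neutrophils moved with the 6 in Lyn-/- mice. Of 16 listed genes 15 were tested, and 13 were higher in Lyn-/- than in WT mice, with a median log2 fold change of 2.02. Their summed level was 1517 to 8050 RPKM in Lyn-/- mice, against 611 to 1001 RPKM in WT. Compared with Lyn-/- mice, 4 of 15 were lower in Lyn-/-Ifnar1-/-, 3 in Lyn-/-Irf5+/- and 1 in Lyn-/-Irf5-/- mice, with median log2 fold changes of -0.87, -0.48 and -0.14. The 1 gene was Ccrl2, a chemerin-binding receptor, with 0.657 ± 0.353 RPKM in Lyn-/-Irf5-/- mice, against 2.92 ± 0.592 RPKM in Lyn-/- (n = 4 each, SD, adjusted p = 0.00291 from limma). The summed level was 917 to 2484 RPKM in Lyn-/-Ifnar1-/-, 1356 to 4660 RPKM in Lyn-/-Irf5+/- and 2517 to 3423 RPKM in Lyn-/-Irf5-/- mice, the last all above WT and inside the range of Lyn-/- mice. The part of neutrophil number in the levels of the 6 genes was not tested.

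**Figure D4:**
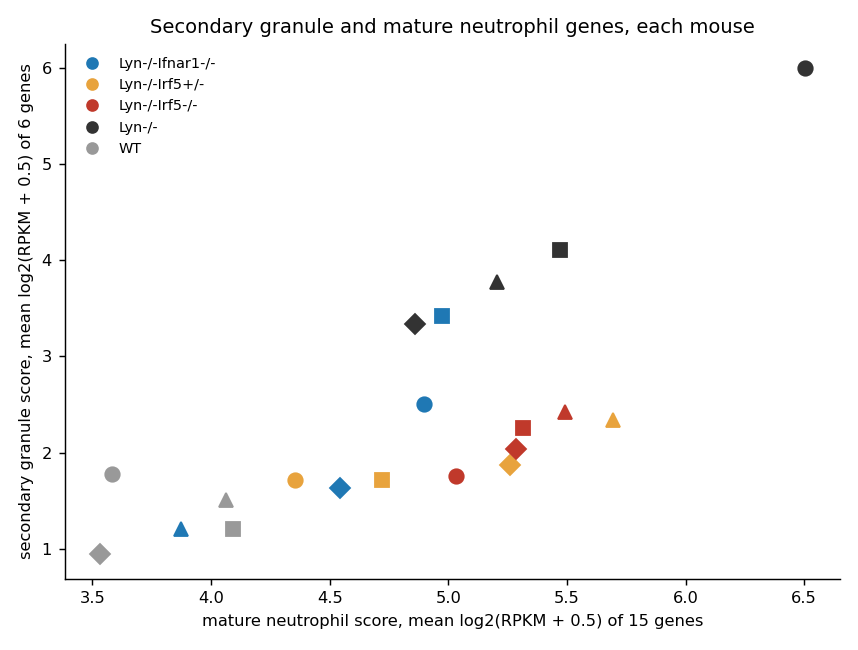
The mean log2(RPKM + 0.5) of the 6 granule genes (vertical) against that of 15 mature neutrophil genes (horizontal) for each of 20 mice, colored by genotype, with circles, squares, triangles and diamonds for mice 1 to 4. The 4 Lyn-/-Irf5-/- mice have mature neutrophil scores of 5.03 to 5.49, within the 4.86 to 6.50 of Lyn-/- mice, and granule scores of 1.75 to 2.43, below the 3.33 to 6.00 of Lyn-/- mice.

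The mean log2 value of the 6 granule genes minus that of the 15 mature neutrophil genes sets both lists side by side within a mouse. It was -2.91 to -1.56 in Lyn-/-Ifnar1-/- mice, -3.39 to -2.64 in Lyn-/-Irf5+/- mice and -3.28 to -3.06 in Lyn-/-Irf5-/- mice. It was -1.53 to -0.50 in Lyn-/- mice and -2.88 to -1.81 in WT mice. Lyn-/- mice thus lay above all mice of the other 4 genotypes, narrowly so above Lyn-/-Ifnar1-/- mouse 2, and all 4 Lyn-/-Irf5-/- mice lay below all WT mice. So did Lyn-/-Irf5+/- mice 2, 3 and 4 and Lyn-/-Ifnar1-/- mouse 4 (-2.91). Values of Camp and Ltf near or below the added 0.5 RPKM are compressed in the granule mean.

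Markers of other cells also moved with the granule genes. In Lyn-/- against WT mice 6 of 6 nonclassical monocyte markers were higher (278 to 327 RPKM summed, against 53.8 to 66.3 RPKM), as were 6 of 10 mitotic cell cycle genes (439 to 1461 RPKM, against 302 to 398 RPKM) and 4 of 5 erythroid markers (26237 to 61024 RPKM, against 18334 to 33322 RPKM). In Lyn-/-Irf5-/- against Lyn-/- mice, 6 of 6, 5 of 10 and 4 of 5 genes of these lists were lower. Mki67, a marker of cycling cells, stood at 0.686 ± 0.156 RPKM in Lyn-/-Irf5-/- mice, against 3.96 ± 1.94 RPKM in Lyn-/- (n = 4 each, SD, adjusted p = 0.00323 from limma). In Lyn-/-Ifnar1-/- against Lyn-/- mice 5 of 6 nonclassical monocyte markers were lower, and 0 of 10 mitotic genes and 0 of 5 erythroid markers were called in limma. Classical monocyte markers were also higher in Lyn-/- than in WT mice, 3 of 3 tested (154 to 178 RPKM summed over 4 listed genes, against 60.0 to 81.9 RPKM). In Lyn-/-Irf5-/- mice they summed to 179 to 198 RPKM, and 0 were called against Lyn-/- mice.

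Lymphocyte markers moved the other way. In Lyn-/- against WT mice 7 of 7 B cell markers were lower (50.1 to 75.5 RPKM summed, against 500 to 685 RPKM), as were 3 of 7 T cell markers (158 to 249 RPKM, against 273 to 348 RPKM) and 3 of 5 NK cell markers (37.6 to 82.7 RPKM, against 96.0 to 113 RPKM). Compared with Lyn-/- mice, 5 of 7 B cell, 3 of 7 T cell and 3 of 5 NK cell markers were higher in Lyn-/-Ifnar1-/- mice, and 6 of 7, 4 of 7 and 3 of 5 were higher in Lyn-/-Irf5+/- mice as well as in Lyn-/-Irf5-/- mice. B cell markers summed to 68.4 to 148 RPKM in Lyn-/-Ifnar1-/-, 143 to 176 RPKM in Lyn-/-Irf5+/- and 135 to 194 RPKM in Lyn-/-Irf5-/- mice, all below WT. No gene of these 7 lists was at 0 in every mouse, and their part in the levels of the granule genes was not tested.

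The genes whose pattern over the 20 mice was most like the mean of the 6 were Ctsa (r = 0.92), Ncf4 (0.91), Glud1 (0.90), Nfil3 (0.90) and Gm2a (0.89). Ncf4 encodes a regulatory subunit of the phagocyte NADPH oxidase, and Ctsa and Gm2a lysosomal proteins. Nfil3, a bZIP transcription factor, ranged from 1.40 to 4.34 RPKM in the compound genotypes, from 3.51 to 11.2 RPKM in Lyn-/- mice and from 1.21 to 2.19 RPKM in WT mice. For deviations from the genotype means genes most alike included Lsp1 (r = 0.93), Anxa2, Fes and Coro1a (0.92 each). Both sets were ranked by Pearson r over all tested genes with a name and are given as a description.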

How the data were processed

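Peripheral blood RNA was sequenced from strand-specific libraries of 20 mice. Per the study's methods, the authors converted reads with bcl2fastq, aligned them to mm10 with STAR, counted them with featureCounts and scaled them by TMM in edgeR. The deposited values are RPKM for 9228 genes, 1 column per mouse, and the gene annotation and the filter behind the listed genes are not given in the sources used here. Whole reads were recovered from the steps between RPKM values, to within 0.05 reads, for 9226 genes. They served only to give depth and 1 alternative.

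Genes had to reach 1 RPKM in 4 or more mice, which 8696 genes and all 6 granule genes did, and their log2(RPKM + 0.5) values were compared with limma 3.58.1 in R 4.3.3 (empirical Bayes with a trend, all 20 mice in 1 model, genotype as the only term). There were 8 comparisons, each with Benjamini-Hochberg adjustment over all tested genes (called where adjusted p was under 0.05), and exact two-sided permutation tests over 8 mice (70 arrangements) stand beside them, unadjusted. Labels do not say whether mice of a group shared a litter or cage, and p values measure the spread between these samples. Python 3.11.15, pandas 2.3.3, numpy 2.4.6, scipy 1.17.1 and matplotlib 3.10.9 served for tables and plots.

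The granule genes and the gene lists were chosen with earlier results of these data known. The text names the 6 genes in full, up to 4 genes of each list with the largest limma statistic in Lyn-/- against WT, and the 5 genes most like the 6 by each measure. Results of some genes under this rule are not reported here. Promoters were matched to RefSeq by symbol for all 6 genes. Alternatives covered the pseudocount, the filter, the scaling, the mice in the model, the variance model, array weights, a block by replicate number, limma-voom on recovered reads and leaving out each mouse. Leaving out Lyn-/-Ifnar1-/- mice 3 and 4 together was added after seeing the data.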

Additional observations from a re-analysis of the deposited data

Results flagged for a closer look

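In 4 of the 30 groups of 4 mice (6 genes in 5 genotypes), 1 mouse stood apart from the other 3 by more than Dixon's 95% critical value for 4 samples, where chance gives about 1 in 20 groups. All 4 were Lyn-/- mouse 1 as the highest. It had 234 RPKM of Ngp, with the next mouse at 46.6 RPKM (gap over range 0.931), and 26.2 RPKM of Ltf, with the next at 5.54 RPKM (0.898). It had 276 RPKM of Lcn2, with the next at 59.3 RPKM (0.912), and 16.5 RPKM of Cd177, with the next at 4.70 RPKM (0.858). These groups share the same mouse, so they are not separate events. On the scale of log2(RPKM + 0.5), which the comparisons used, the gap over range was 0.821, 0.751, 0.781 and 0.714 for these 4 genes, and 0 of the 30 groups passed the critical value. The wide spread among Lyn-/- mice was known when the 6 genes were chosen, so these values are a description. Its library held a median of 39 reads per gene, against 23 to 30 in the other 3 Lyn-/- mice.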

How the results depend on the processing

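Of 1568 values for the 48 log2 fold changes (6 genes in 8 comparisons) under 33 alternatives, 1500 kept direction and side of the threshold, 26 lost the call, 21 gained it and 21, none of them called, changed sign. The 6 calls of Lyn-/- against WT held under all alternatives but both RPKM sums (5 called, Mmp8 lost) and a filter at 5 RPKM, which left 4 genes, all called. Setting libraries to the same sum of RPKM moved the median of all genes in that comparison to -0.25, and to -0.54 with hemoglobin left out of the sum. The split of all calls was 1483 higher and 1346 lower, 512 and 337 with the same sum, and 513 and 2499 outside hemoglobin. In Lyn-/-Irf5-/- against Lyn-/- these scalings moved the median to 0.54 and 0.65, and the split was 466 higher and 746 lower, 360 and 258, and 2874 and 343.

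The number of the 6 genes called in Lyn-/-Ifnar1-/- against WT was 1, and became 0 with either RPKM sum, 2 with only the genotypes compared, 4 with array weights, 2 with limma-voom and 2 without Lyn-/-Ifnar1-/- mice 3 and 4. In Lyn-/-Irf5+/- against WT it was 1, and became 0 with either RPKM sum, 2 with only the genotypes compared and 3 with array weights. In Lyn-/-Ifnar1-/- against Lyn-/- it was 3 and became 0 with only the genotypes compared, and in Lyn-/-Ifnar1-/- against Lyn-/-Irf5-/- it was 0 and became 1 with array weights. Leaving out 1 mouse each gave 0 to 2 in both comparisons of Lyn-/-Ifnar1-/- and Lyn-/-Irf5+/- with WT, 3 to 4 in these genotypes against Lyn-/-, 2 to 3 in Lyn-/-Irf5-/- against WT and 3 in Lyn-/-Irf5-/- against Lyn-/-. The causes of these changes were not tested. A fit of only the genotypes compared has fewer mice and does not share the spread of the other genotypes. With it the number fell in Lyn-/-Ifnar1-/- against Lyn-/-, but rose in Lyn-/-Ifnar1-/- and in Lyn-/-Irf5+/- against WT.

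Over the leave-one-out fits, uncalled log2 fold changes that changed sign ranged from -0.24 to 1.14 for Ngp and -0.43 to 0.97 for Camp in Lyn-/-Ifnar1-/- against WT, -0.57 to 0.17 for Ngp and -0.20 to 0.63 for Camp in Lyn-/-Irf5+/- against WT, and -0.62 to 0.16 for Ngp in Lyn-/-Irf5-/- against WT. They ranged from -0.67 to 0.0821 for Mmp8 in Lyn-/-Irf5+/- against Lyn-/-, -0.30 to 0.45 for Mmp8 and -0.68 to 0.12 for Cd177 in Lyn-/-Irf5-/- against Lyn-/-, and -0.0912 to 1.30 for Camp in Lyn-/-Ifnar1-/- against Lyn-/-Irf5-/-. Camp in Lyn-/-Irf5+/- against WT also changed sign with the same RPKM sum (-0.10) and array weights (-0.0080). In Lyn-/-Irf5-/- against Lyn-/-, Mmp8 did so with median of ratios (-0.0037), Lcn2 outside hemoglobin (0.0535), and Cd177 with the same sum (0.0929) and outside hemoglobin (0.22). Lcn2 in Lyn-/-Ifnar1-/- against Lyn-/-Irf5-/- did so without Lyn-/-Ifnar1-/- mice 3 and 4 (0.0031).

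With the replicate number as a block (replicate block), the numbers of genes called were 6, 1, 1 and 3 against WT (Lyn-/-, Lyn-/-Ifnar1-/-, Lyn-/-Irf5+/-, Lyn-/-Irf5-/-), 3, 3 and 3 against Lyn-/- and 0 in Lyn-/-Ifnar1-/- against Lyn-/-Irf5-/-, as without it. The numbers did not pair the mice, since deviations of 40 same-numbered pairs correlated at -0.24 to 0.50 (median 0.013). Depth limits Camp and Ltf most, with 5 to 28 reads in all in each genotype other than Lyn-/-. Ngp had 27 reads in all in Lyn-/-Irf5+/- mice.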

Other observations

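S100a9, an abundant alarmin of mature neutrophils, gives a second scale within each mouse for 2 of the genes, picked after their values were seen and not tested. The ratio of Ngp to S100a9 was 0.00180 to 0.0180 in Lyn-/-Ifnar1-/- mice, 0.00118 to 0.00335 in Lyn-/-Irf5+/- mice and 0.000787 to 0.00317 in Lyn-/-Irf5-/- mice. It was 0.0299 to 0.0600 in Lyn-/- mice and 0.00364 to 0.0304 in WT mice, where WT mouse 1 alone reached the Lyn-/- range. The ratio of Lcn2 to S100a9 was 0.0383 to 0.0660 in Lyn-/-Ifnar1-/- mice, 0.0190 to 0.0320 in Lyn-/-Irf5+/- mice and 0.0270 to 0.0401 in Lyn-/-Irf5-/- mice. It was 0.0399 to 0.0672 in Lyn-/- mice and 0.0234 to 0.0462 in WT mice, so that its ranges in Lyn-/- and WT mice overlapped.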
